A study of Rattus norvegicus with 3 samples.

Results

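The genes described here form the switch by which a cell leaves G1 and begins to copy its DNA. They are the D cyclins Ccnd1, Ccnd2 and Ccnd3, the E cyclins Ccne1 and Ccne2, the kinases Cdk2, Cdk4 and Cdk6, the retinoblastoma gene Rb1 and the transcription factor gene E2f1. These 10 genes were chosen by name, out of 13301 rat genes with a named probe on the array, and a probe was taken as theirs through its RefSeq accession. A total of 9 of the 10 had at least 1 probe, 16 probes in all, and every probe is shown. No probe was named Cdk6 in this way, and this kinase was not analysed here.

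The arrays compared the rat osteosarcoma line COS1NR and the malignant fibrous histiocytoma (MFH) line MFH1NR with mesenchymal stem cells (MSCs), all of the inbred F344 strain. Each sarcoma line goes back to a tumor that was induced with the carcinogen 4-HAQO, and the methods state that both lines carry a p53 mutation. The MSCs were bone marrow cells of the femur that adhered to plastic and were not sorted by surface markers. Each cell type was read on 1 whole genome array with 1 label (Cy3), so no difference could be set against a spread between cultures and no test was made.

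In G1, mitogens raise the D cyclins, which bind Cdk4 and Cdk6 and begin to phosphorylate the Rb protein. Rb otherwise holds E2F transcription factors, of which E2f1 is an activator. Once released, E2F factors switch on the E cyclins, E2f1 itself and the genes of DNA synthesis, and cyclin E with Cdk2 completes the phosphorylation of Rb. In human osteosarcoma and undifferentiated sarcoma this axis is known to be disturbed, by loss of RB1 or by gain of CDK4 or cyclin genes.

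Intensities are given as relative intensities, on a linear scale, which are multiples of the 75th percentile of the same array. Log2 ratios are differences between the logarithms of these values, and the error given with each (±) is the one that the scanner software assigns to single spots, since each member probe was printed in 1 spot. This error covers neither cultures nor labeling. Relative intensities of different probes are not comparable, because probes differ in how strongly they bind. Of the 16 probes, 14 were well above background on all arrays by the software's own call. As a yardstick, the disagreement between 2 probes of a gene had a median, over 1895 genes, of 0.28 on the log2 scale for COS1NR over MSCs, 0.31 for MFH1NR over MSCs and 0.15 for MFH1NR over COS1NR.

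The sarcoma arrays lay on 1 slide and that of MSCs on a second. By the methods, the MSCs were also kept with more serum in the medium than the sarcoma lines. For these reasons ratios to MSCs carry slide, serum and cell type together, which cannot be told apart. The ratio of MFH1NR to COS1NR stays within a slide. Markers of stromal cells and fibroblasts were well above background for 10 of 10 genes in MSCs and for 9 of 10 in each sarcoma, without Thy1 in COS1NR and Dcn in MFH1NR. Their summed relative intensity was 1600 in MSCs, against 279 in COS1NR and 429 in MFH1NR. Of 5 osteoblast markers with a probe, 4 were well above background in MSCs, against 4 in COS1NR and 5 in MFH1NR. Sp7, which defines the lineage, was so only in MFH1NR. Of 12 macrophage markers, 12 were well above background in MSCs, against 7 in COS1NR and 6 in MFH1NR. Their summed relative intensity was 174.5, 9.57 and 4.71. Neither sarcoma had Lyz2, Ptprc, Itgam, C1qa or Cd74 well above background. Of 7 T cell markers with a probe, the MSC array had 4 well above background, that of COS1NR 2 and that of MFH1NR 1, and Cd3e was so on none. Of 7 neutrophil markers these counts were 1, 3 and 0, and Elane was so on none. Adipocyte markers had a summed relative intensity of 1.83, 38.1 and 0.334 in MSCs, COS1NR and MFH1NR. Of 5 with a probe, 5, 4 and 1 were well above background, and Adipoq was so only in MSCs. In such bulk RNA, fewer cells of a type and less RNA per cell cannot be told apart, and the part of these marker genes' cells in the ratios to MSCs was not tested.

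The E cyclins, Cdk2 and E2f1 were higher in both sarcomas, and Ccnd2 was lower in both. Read by the brighter probe of each gene, 5 of the 9 genes (55.6%) were at least 2-fold higher in COS1NR than in MSCs, against 21.7% of all 10009 genes that were well above background on at least 1 array. In MFH1NR, 4 of 9 (44.4%) were, against a background of 20.8%. Ccne1, Ccne2, Cdk2 and E2f1 passed this 2-fold mark in both sarcomas, against 12.2% of all genes, and Ccnd1 in COS1NR only. Lower by at least 2-fold were Ccnd2 alone in COS1NR (background 22.3%) and Ccnd2 and Rb1 in MFH1NR (background 23.2%). Ccnd2 alone was so in both (background 14.6%). The median log2 ratio to MSCs over the 9 genes was 1.32 in COS1NR and 0.55 in MFH1NR, beside 0.11 and 0.01 over all genes. Without scaling between arrays, the background shares became 32.9% higher and 17.5% lower in COS1NR and 41.6% higher and 15.4% lower in MFH1NR, with 24.6% higher in both, and the medians over all genes became 0.51 and 0.77. The members higher were then 6 of 9 in COS1NR and 5 of 9 in MFH1NR. Both ratios use the same MSC array.

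**Figure D1:**
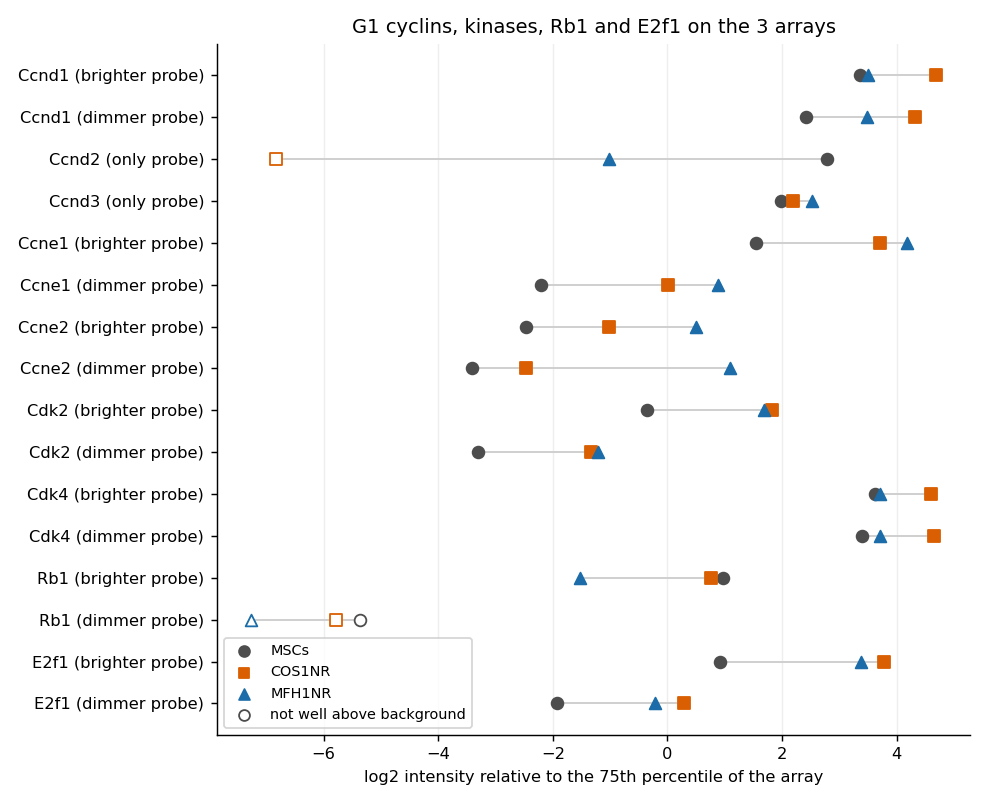
Log2 intensity of each probe of the 9 measured genes (rows), as a multiple of the array's 75th percentile (x axis), in MSCs (circles), COS1NR (squares) and MFH1NR (triangles), with 1 array per cell type and no error bars; open symbols were not well above background. MSCs have the lowest point for every probe of Ccnd1, Ccnd3, Ccne1, Ccne2, Cdk2, Cdk4 and E2f1, by differing amounts, and the highest for Ccnd2.

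The D cyclins are the mitogen-dependent partners of Cdk4 and Cdk6, and the 3 genes went 3 different ways. Ccnd1, the D cyclin most often amplified in human tumors, was read by 2 probes. Its brighter probe had a relative intensity of 10.3 in MSCs, against 25.8 in COS1NR and 11.4 in MFH1NR, so that log2 ratios were 1.32 ± 0.20 (COS1NR to MSCs) and 0.14 ± 0.20 (MFH1NR to MSCs). The dimmer probe had 5.32, 19.9 and 11.1, with log2 ratios of 1.90 ± 0.20 and 1.07 ± 0.20. Both probes thus placed COS1NR above MSCs by at least 2-fold, while MFH1NR was level with MSCs by the first and 2.09-fold higher by the second. Without scaling, the log2 ratio of MFH1NR by the brighter probe was 0.90. The probes differed by 0.92 in the log2 ratio of MFH1NR, close to the 0.99 that 1 gene in 10 exceeded.

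Ccnd2, a D cyclin prominent in lymphocytes, had 1 probe, with a relative intensity of 6.91 in MSCs and 0.491 in MFH1NR, a log2 ratio of -3.81 ± 0.21. In COS1NR it was not well above background, and its value of 0.00875 lay below the lowest relative intensity that was, 0.0380. This bound put Ccnd2 at least 182-fold lower in COS1NR than in MSCs, and it was 14.1-fold lower in MFH1NR. The bound depends on the background correction, and after normexp, a correction that adds an offset to all intensities, the log2 ratio of COS1NR was -6.08, a smaller difference. MSCs were high, MFH1NR intermediate and COS1NR below the limit. Between the sarcomas, Ccnd2 was higher in MFH1NR, at least 12.9-fold by the same bound, and by 2.71 on the log2 scale after normexp. Macrophage markers were also higher in MSCs than in the sarcomas, as given above, and their part was not tested.

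Ccnd3, a D cyclin known for its role in developing T cells, also had 1 probe. Its relative intensity was 3.94 in MSCs, against 4.59 in COS1NR and 5.75 in MFH1NR, and its log2 ratios to MSCs were 0.22 ± 0.20 and 0.55 ± 0.20. The former was smaller than the median disagreement between probes, and neither reached 2-fold. Without scaling, the latter was 1.30.

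The E cyclins, the partners of Cdk2 at the entry to S phase, were higher in both sarcomas by every probe. The brighter probe of Ccne1 had a relative intensity of 2.91 in MSCs, against 13.1 in COS1NR and 18.1 in MFH1NR, with log2 ratios of 2.17 ± 0.20 and 2.64 ± 0.20. The dimmer probe had 0.216, 1.01 and 1.83, with log2 ratios of 2.22 ± 0.21 and 3.09 ± 0.21. The order was MSCs, COS1NR, MFH1NR by both, and the probes differed by only 0.05 in COS1NR and by 0.45 in MFH1NR.

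Ccne2 is the second E cyclin gene, and it was dim in MSCs. Its brighter probe had a relative intensity of 0.181 in MSCs, against 0.496 in COS1NR and 1.41 in MFH1NR, with log2 ratios of 1.45 ± 0.22 and 2.96 ± 0.21. Its dimmer probe had 0.0944, 0.181 and 2.12, with log2 ratios of 0.94 ± 0.24 and 4.49 ± 0.23. Both probes gave the order MSCs, COS1NR, MFH1NR, but the size in MFH1NR went from 7.77-fold to 22.5-fold with the probe, and the increase in COS1NR was just under 2-fold by the dimmer one. Of all genes used, 3.62% had a ratio of MFH1NR to MSCs as high as that of the brighter probe and 0.989% one as high as that of the dimmer. The probes of Ccne2 differed by 1.53 in this log2 ratio, more than in 9 of 10 genes.

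Cdk2, the kinase of the E cyclins, was higher in both sarcomas to about the same extent. Its brighter probe had a relative intensity of 0.785 in MSCs, against 3.54 in COS1NR and 3.23 in MFH1NR, with log2 ratios of 2.17 ± 0.20 and 2.04 ± 0.20. The dimmer probe had 0.101, 0.397 and 0.430, with log2 ratios of 1.97 ± 0.23 and 2.09 ± 0.22. The sarcoma arrays lay within 0.13 of each other on the log2 scale by both probes, less than the error of a spot.

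Cdk4, the kinase of the D cyclins, was higher in COS1NR, and in MFH1NR it was level with MSCs under the scaling used. The brighter probe had a relative intensity of 12.4 in MSCs, against 24.3 in COS1NR and 13.2 in MFH1NR. For the dimmer probe these were 10.5, 25.2 and 13.0. The log2 ratios were 0.97 ± 0.20 and 1.27 ± 0.20 in COS1NR, on either side of 2-fold, and 0.09 ± 0.20 and 0.31 ± 0.20 in MFH1NR. By the brighter probe the ratio of MFH1NR was 0.84 without scaling. After normexp it was 0.45, with the brighter probe chosen anew on the corrected intensities. Cdk4 had the same order of arrays as its partner Ccnd1. Distances in log2 over the 3 centred levels were taken by the brighter or only probe, for the 8 genes well above background on all arrays. Ccnd1 and Cdk4 then had the most similar pattern, at a distance of 0.27. The next pairs were Ccne1 with Cdk2, at 0.49, and Cdk2 with E2f1, at 0.49. The probes of Ccnd1 differed by 0.58 (COS1NR) and 0.92 (MFH1NR) in the log2 ratio to MSCs, more than each of these distances. The ranking may therefore depend on the probe, and the dimmer probes were not compared in this way.

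**Figure D2:**
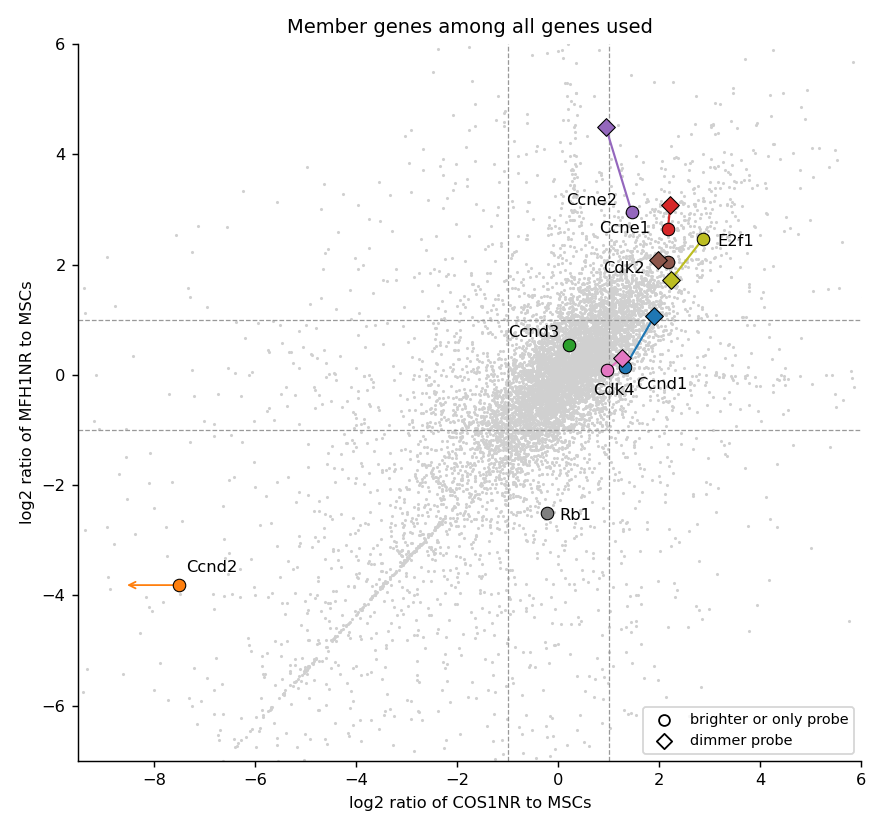
Log2 ratio of COS1NR (x axis) and of MFH1NR (y axis) to MSCs for all genes used (grey points, 267 of them beyond the axes) and for the members (colored; circles, brighter or only probe; diamonds, dimmer probe, joined by a line), with dashed lines at 2-fold. Ccne1, Ccne2, Cdk2 and E2f1 lie at the upper right, Ccnd1 and Cdk4 to the right, Rb1 below, and Ccnd2 at its bound, with an arrow toward lower values. Grey genes are plotted at their fitted values, also where not well above background.

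Rb1 encodes the pocket protein that the kinases act upon. Its brighter probe had a relative intensity of 1.97 in MSCs, against 1.69 in COS1NR and 0.346 in MFH1NR. COS1NR was level with MSCs, with a log2 ratio of -0.23 ± 0.20, whose sign turned to 0.17 without scaling. MFH1NR was 5.69-fold lower than MSCs, with a log2 ratio of -2.51 ± 0.21, and 11.5% of all genes were as low. The other probe of Rb1 was not well above background on any array and gave no ratio, so this difference rests on 1 probe. Intensities carry no information on the protein, its phosphorylation or mutations of the gene.

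E2f1, the activating E2F factor, was higher in both sarcomas by both probes. The brighter probe had a relative intensity of 1.89 in MSCs, against 13.7 in COS1NR and 10.4 in MFH1NR, with log2 ratios of 2.86 ± 0.20 and 2.46 ± 0.20. The dimmer probe had 0.262, 1.22 and 0.857, with log2 ratios of 2.22 ± 0.21 and 1.71 ± 0.21. COS1NR was the highest of the 3 arrays by both. Of all genes used, 3.14% had a ratio of COS1NR to MSCs as high as that of the brighter probe.

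Promoter sequences are shown for 4 genes that differ in their pattern, namely Ccne1 and Cdk2, high in both sarcomas, Cdk4, highest in COS1NR, and Rb1, low in MFH1NR. RefSeq windows of the GRCr8 build, from 250 bases before the start to 50 after it, were found for 5 of the 10 genes, and Ccnd3 is the fifth. Capitals mark GC boxes (GGGCGG) in Ccne1, an E2F motif (TTCCCGC, on the opposite strand) in Cdk2, E-boxes (CACGTG, the letters bound by Myc and related factors) in Cdk4 and E2F motifs (TTCCCGC) in Rb1. The windows are chr1:99927860-99928159 (Ccne1), chr7:1721829-1722128 (Cdk2) and chr15:54911808-54912107 (Rb1) on the minus strand and chr7:64771203-64771502 (Cdk4) on the plus strand, each written 5′ to 3′ in the sense of the gene.
Ccne1: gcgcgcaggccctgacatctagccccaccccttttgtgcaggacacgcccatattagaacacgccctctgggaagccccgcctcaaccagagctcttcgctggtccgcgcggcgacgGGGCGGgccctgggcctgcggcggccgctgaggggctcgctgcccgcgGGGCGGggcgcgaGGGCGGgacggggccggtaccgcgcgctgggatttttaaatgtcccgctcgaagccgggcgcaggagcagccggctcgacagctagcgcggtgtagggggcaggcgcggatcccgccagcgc
Cdk2: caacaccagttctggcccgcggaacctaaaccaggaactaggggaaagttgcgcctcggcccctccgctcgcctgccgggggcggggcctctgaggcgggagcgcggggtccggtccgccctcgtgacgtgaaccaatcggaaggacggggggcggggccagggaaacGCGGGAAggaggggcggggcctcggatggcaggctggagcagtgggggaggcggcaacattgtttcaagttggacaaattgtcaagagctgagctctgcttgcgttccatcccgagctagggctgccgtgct
Cdk4: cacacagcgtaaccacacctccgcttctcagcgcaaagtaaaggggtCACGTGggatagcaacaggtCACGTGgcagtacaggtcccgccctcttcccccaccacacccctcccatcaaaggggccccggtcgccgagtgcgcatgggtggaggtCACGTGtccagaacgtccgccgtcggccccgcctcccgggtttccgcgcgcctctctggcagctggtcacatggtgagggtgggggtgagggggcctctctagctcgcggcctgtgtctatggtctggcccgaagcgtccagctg
Rb1: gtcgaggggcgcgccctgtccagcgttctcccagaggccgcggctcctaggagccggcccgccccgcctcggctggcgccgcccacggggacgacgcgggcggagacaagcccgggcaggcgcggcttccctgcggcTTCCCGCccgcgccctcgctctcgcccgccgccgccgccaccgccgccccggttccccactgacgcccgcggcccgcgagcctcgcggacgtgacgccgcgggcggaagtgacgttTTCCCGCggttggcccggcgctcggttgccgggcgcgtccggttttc

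Motifs were searched on both strands. An E2F motif, taken as TTCCCGC or TTGGCGC, was present once in the Cdk2 window, with its first base 82 before the start, and in 2 places in that of Rb1, from 113 before the start and from base 4 of the gene. These letters were found in 6.67% of 27457 RefSeq promoters of the same length. The Cdk4 window held 3 E-boxes, at 203, 183 and 95 bases before the start, and 6.65% of all promoters held at least 1. GC boxes were in all 5 windows, 6 in Rb1, 4 in Cdk2, 3 each in Ccne1 and Ccnd3 and 1 in Cdk4, and 34.9% of promoters held at least 1. The Ccne1 window had no match to the E2F letters. A partial site of the cyclic AMP response element (TGACGT), found in 8.22% of promoters, was present in Cdk2, Rb1 and Ccnd3, and a CCAAT box (CCAAT), found in 37.7%, in Cdk2 and Ccnd3. In Rb1, the E2F match that begins at 113 overlaps a GC box. A match is a run of letters and was not tested as a site.

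**Figure D3:**
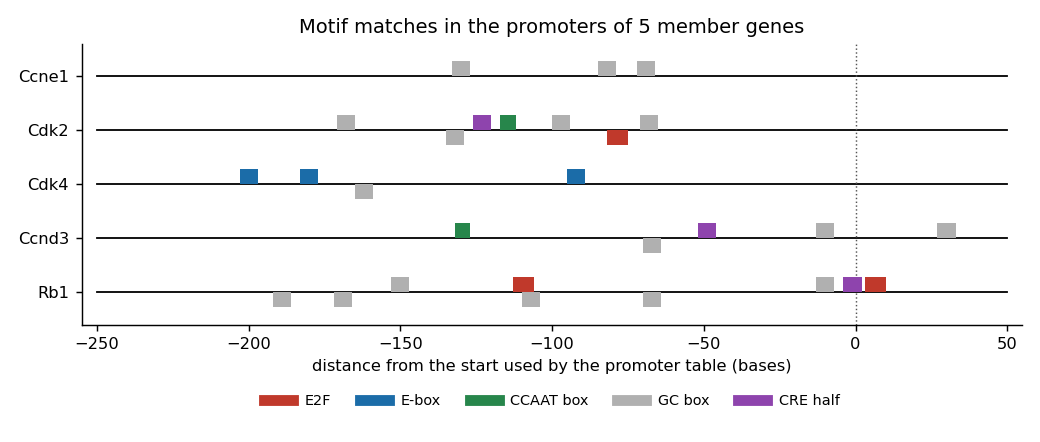
Positions of motif matches (boxes) in the promoter windows of 5 member genes, as distance in bases from the start that the promoter table uses (x axis, dotted line at the start); boxes above the line are on the strand of the gene and boxes below on the other. E-boxes are seen only in Cdk4, and E2F matches only in Cdk2 and Rb1, among these 5 windows.

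The sarcomas differed from each other at 4 of the 9 genes by at least 2-fold. This comparison did not use the MSC array. Ccne2 and Ccnd2 were higher in MFH1NR, against 13.9% of all genes, and Ccnd1 and Rb1 were lower, against 16%. Rb1 was 4.87-fold lower in MFH1NR, with a log2 ratio of -2.28 ± 0.21, and 6.68% of genes were as low. Ccne2 was 2.84-fold higher by its brighter probe and 11.7-fold by its dimmer one, with log2 ratios of 1.5 ± 0.21 and 3.55 ± 0.22. The difference of 2.04 between these is far above the 0.59 that 1 gene in 10 exceeded.

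Ccnd1 and Cdk4 were both lower in MFH1NR than in COS1NR. Ccnd1 had log2 ratios of -1.18 ± 0.20 and -0.84 ± 0.20, on either side of 2-fold, and -0.82 by its brighter probe without scaling. Those of Cdk4, -0.88 ± 0.20 and -0.95 ± 0.20, were under 2-fold by both probes. Ccne1, at 0.47 ± 0.20 and 0.87 ± 0.20, was higher in MFH1NR, and E2f1, at -0.40 ± 0.20 and -0.51 ± 0.20, was lower under the scaling used. Without scaling, E2f1 was at -0.04 by its brighter probe, level between the sarcomas. Ccnd3 had 0.33 ± 0.20 and Cdk2 -0.13 ± 0.20 and 0.12 ± 0.21. Over the 9 genes the median log2 ratio was -0.13, beside -0.11 over all genes, and genes lay on both sides of it.

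**Figure D4:**
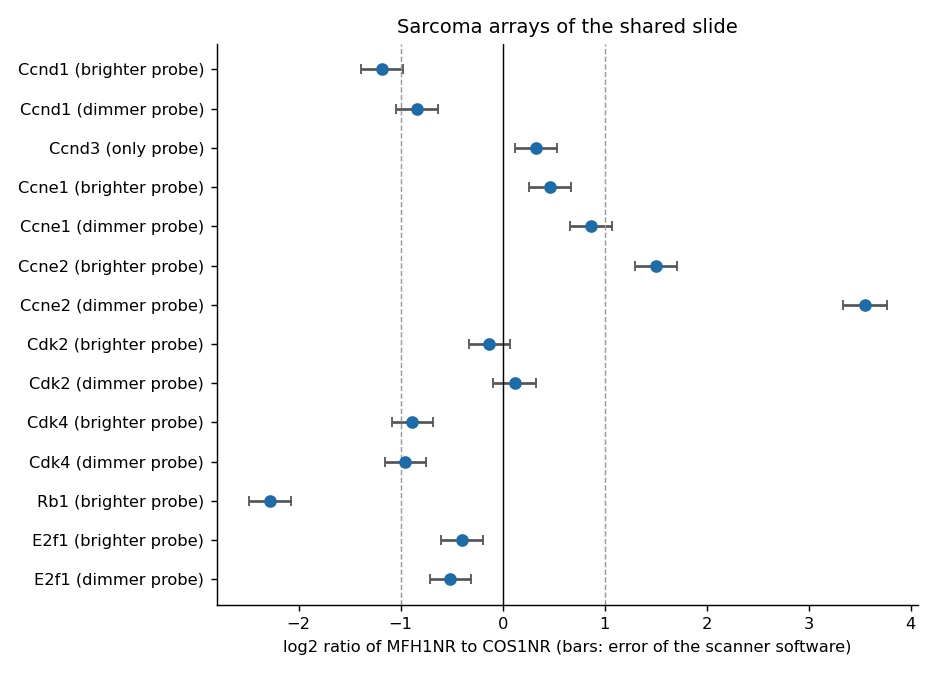
Log2 ratio of MFH1NR to COS1NR (x axis) for each member probe that was well above background on both arrays (rows), with bars for the error that the scanner software gives to a ratio of single spots and dashed lines at 2-fold. Rb1 lies furthest to the left at -2.28, and the probes of Ccne2 furthest to the right at 1.5 and 3.55.

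With 3 arrays a pattern consists of only 2 ratios, so many genes resemble any member. Likeness was measured as the distance between log2 levels centred over the 3 arrays, among 7931 genes well above background on all of them. Within 0.31, the median distance between 2 probes of a gene, lay 736 genes for Ccnd3, 409 for Cdk4, 173 for Ccnd1, 111 for Cdk2, 54 for Ccne1, 51 for E2f1, 20 for Ccne2 and 15 for Rb1. By the brighter probe of each gene, the patterns of Rb1 and Ccne2 were thus the least common. The 2 probes of Ccne2 differed by 1.53 and 2.04 in the log2 ratios of MFH1NR to MSCs and to COS1NR. The place of Ccne2 and its nearest genes may therefore depend on the probe, and Rb1 rests on 1 probe. The nearest genes were Cd151 and Prxl2b for Rb1, at distances of 0.07 and 0.11, and Tyms and Pip5k1b for Ccne2, at 0.08 and 0.16. For E2f1 they were Pttg1 and Parpbp, at 0.01 and 0.04, and for Ccne1 Cdca5 and Nup42, at 0.06 and 0.07. Zfp157 and Pxmp4 were nearest to Cdk2, Trim29 and Bcas2 to Ccnd1, Eif3e and Iba57 to Cdk4, and Aste1 and Uckl1 to Ccnd3, all at 0.03 or less.

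The other genes of the pathway were read from 9 lists of 110 genes, of which 89 had a named probe and 87 were used. Over all genes, 12.2% were at least 2-fold above MSCs in both sarcomas and 14.6% below. Of 21 E2F target genes of S phase entry used, 19 were at least 2-fold higher in COS1NR, 19 in MFH1NR and 18 in both, and none was lower by as much in either. Their median log2 ratio was 2.11 in COS1NR and 2.31 in MFH1NR. Cdc6, which loads the replicative helicase, had ratios of 7.26 and 5.73, and Brca1, a repair gene, of 5.39 and 7.63. Brca1 had 1 probe, and its relative intensity of 0.0456 in MSCs lay near the lowest called well above background, 0.0304. The exceptions to a 2-fold increase in both were Mcm7, Ung and Chek1, which were named after their values were seen. All genes of the S, G2 and M phase list, 6 of 6, were at least 2-fold higher in COS1NR and 5 in MFH1NR. In this list, Ccna2, the S phase cyclin, had ratios of 9.24 and 4.91, and Cdk1, the mitotic kinase, of 4.88 and 3.60.

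The genes that act on the cyclin-dependent kinases were mixed. Of 7 inhibitors, 3 passed 2-fold upward in COS1NR and 4 in MFH1NR, while 2 and 1 passed it downward. The shares of all genes beside these are 21.7% and 20.8% upward and 22.3% and 23.2% downward, and they apply to the other lists too. Cdkn1a (p21), an inhibitor of Cdk2 complexes and a known p53 target, was 7.87-fold lower in COS1NR and 9.25-fold lower in MFH1NR, with log2 ratios of -2.98 and -3.21. Its other probe gave smaller differences, of -2.10 and -1.95. The single probe of Cdkn2a, a locus that encodes the Cdk4 inhibitor p16 and also ARF, had a relative intensity of 6.56 in MSCs, against 15.5 in COS1NR and 92.5 in MFH1NR. It was highest on the array on which Rb1 was lowest, and no relation across 3 arrays can be tested. Cdkn2d (p19), another inhibitor of Cdk4 and Cdk6, had ratios of 6.57 and 8.57. Of 7 activators and opposing kinases, 4 passed 2-fold upward in both sarcomas and none downward in either. Pkmyt1, a kinase that inhibits Cdk1, had ratios of 7.66 and 6.42. Cdc25a, the phosphatase that activates Cdk2, was not well above background in MSCs. Relative to the bound this sets, COS1NR was at least 3.29-fold higher and MFH1NR at least 4.02-fold.

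Of 11 genes for the turnover of G1 cyclins and inhibitors, 5 passed 2-fold upward in COS1NR (21.7% of all genes) and 3 in MFH1NR (20.8%). Without scaling these numbers were 5 (32.9%) and 8 (41.6%). Usp2, named after its value was seen, was the only one to pass 2-fold downward, in COS1NR, which it did under no other scaling tried. Skp2, which directs the destruction of p27, had ratios of 5.09 and 3.41, and log2 ratios of 1.11 and 0.69 by its other probe. Cks2, a small partner of the kinases, had ratios of 4.97 and 3.84. Of 5 pocket protein, E2F and DP genes used besides Rb1 and E2f1, only Tfdp1, the DNA-binding partner of E2F factors, was at least 2-fold higher in both, with ratios of 2.18 and 2.35, and with log2 ratios of 0.52 and 0.56 by its other probe. Without scaling, 2 of these 5 were at least 2-fold higher in both, beside 24.6% of all genes. None passed 2-fold downward. Rbl2 (p130), a pocket protein related to Rb1 that was named after its values were seen, had log2 ratios of -0.58 and -0.91. The MuvB list had 3 genes of the MuvB core, which joins the pocket proteins in the DREAM complex, and Mybl2, which binds this core in their place. Lin54 alone passed 2-fold upward in both, with ratios of 2.67 and 2.96, and none of the 4 passed it downward in either. In MSCs its relative intensity of 0.0535 lay near the lowest called well above background, 0.0304. The other probe of Lin54 was well above background in MFH1NR only.

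Cyclins and kinases outside this switch were mixed. Of 17 other cyclins and cyclin-dependent kinases, 1 was at least 2-fold higher in both sarcomas and 3 were lower, beside 12.2% and 14.6% of all genes. Without scaling, 3 of this list were higher in both and 2 lower, while those shares became 24.6% and 10.4%. The list had median log2 ratios of -0.04 (COS1NR) and -0.25 (MFH1NR) under the scaling used. Cdk5, a kinase best known in neurons, had ratios of 2.13 and 2.80. Ccng1, a p53 target, was 2.91-fold lower in COS1NR and 4.77-fold lower in MFH1NR, and Cdk17 was 2.68-fold and 4.15-fold lower. For Cdk17 the log2 ratios were -1.42 and -2.05 by this probe and -2.32 and -3.14 by the other. Of 9 transcription factors known to act on D cyclin genes, none was at least 2-fold higher in both sarcomas and 2 were lower, beside the same shares. Counted sarcoma by sarcoma, 5 of these 9 were at least 2-fold lower in COS1NR, beside 22.3% of all genes, and 4 in MFH1NR, beside 23.2%, while 1 was at least 2-fold higher in each. Without scaling, the numbers lower became 3 and 2. Myc was 2.14-fold lower in COS1NR and 2.40-fold lower in MFH1NR, with log2 ratios of -1.10 and -1.26, which were -0.71 and -0.51 without scaling and -0.94 and -1.04 with median scaling. Lef1, the Wnt effector, was well above background on the MSC array alone, with bounds of at least 7.30-fold lower for COS1NR and at least 9.17-fold for MFH1NR. The median log2 ratio of this list was -1.10 in COS1NR and -0.67 in MFH1NR.

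**Figure D5:**
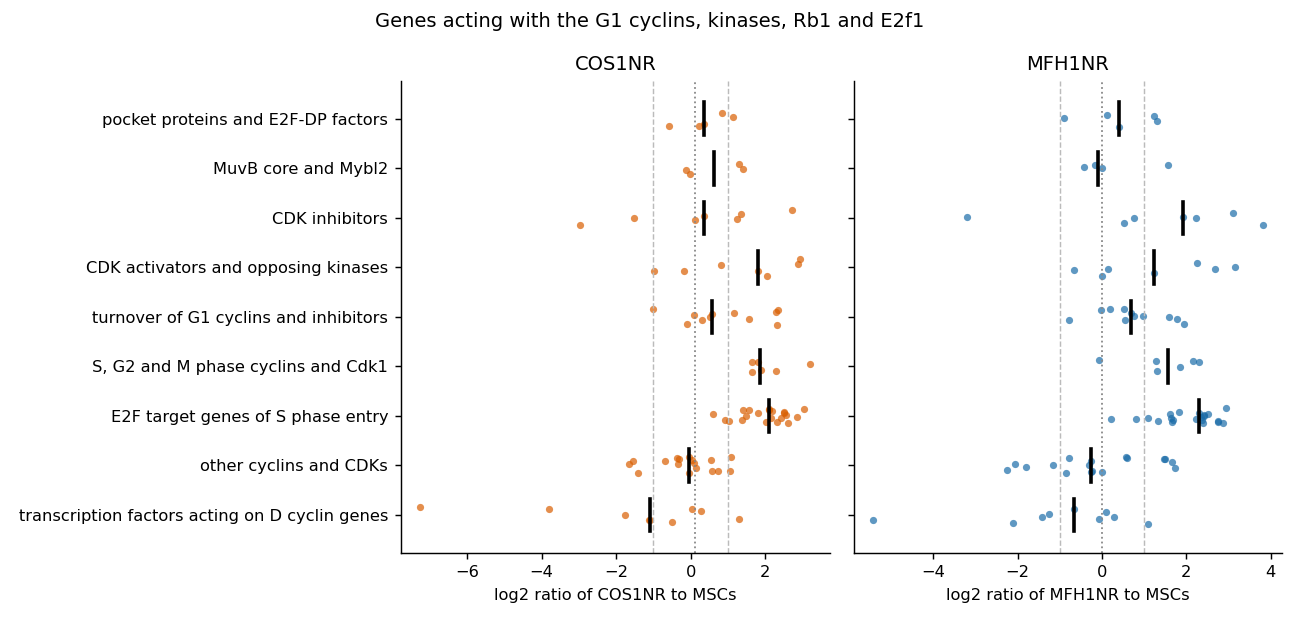
Log2 ratio to MSCs (x axes) of each gene used (points, 1 probe per gene) in the 9 pathway lists (rows), in COS1NR (left) and MFH1NR (right), with the list median as a black bar, the median of all genes dotted and 2-fold dashed. The E2F target genes have medians of 2.11 and 2.31, and the other cyclins and kinases of -0.04 and -0.25; genes not well above background on an array are plotted at their fitted values.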

How the data were processed

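Labeled cRNA of each cell type was hybridized to 1 Agilent array for the rat genome. The authors deposited intensities from Feature Extraction, version 10.5.1.1 in the file headers and 9.1 in the labels, which were background-subtracted and detrended but not scaled from array to array. The deposited series table held the same intensities on 3 of 3 arrays. Of 43379 spots per array that are not controls, between 56.6% and 59.7% were well above background and none was saturated. Outlier spots, 187 to 217 per array, were left out, and spots of a probe were averaged on the log2 scale. Intensities were divided by the 75th percentile of their array, which was 589 in MSCs, against 774 in COS1NR and 994 in MFH1NR.

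Probes were named through RefSeq accessions in RefSeq's gene table for GRCr8, 16745 probes in all. The array design was annotated against rn4, so no probe coordinates are given. Promoter coordinates are those of RefSeq's GRCr8 table. The probe with the highest mean log2 intensity stood for its gene. Where an array was not well above background, the bound was set by the higher of the dim value and the lowest intensity with that call. The members and lists were chosen with earlier results of these data known. Named are all members, from each list up to 2 genes highest and up to 2 genes lowest by the mean ratio over both sarcomas, if at least 2-fold from MSCs in each, and the 2 genes nearest to each member. Alternatives were other scalings, the series table, a normexp correction with an offset of 50, other probes, other filters and folds of 1.5 and 3. The counting step was tested on simulated data. The number of arrays limits the precision. Software was R 4.3.3 (limma 3.58.1) and Python 3.11.15 (numpy 2.4.6, pandas 2.3.3, matplotlib 3.10.9).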

Additional observations from a re-analysis of the deposited data

Results flagged for a closer look

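Of the members and the pathway genes used, Fosl1, an AP-1 factor that acts on the Ccnd1 gene, was the only gene well above background on all arrays that lay at least 2-fold above MSCs in one sarcoma and at least 2-fold below them in the other. Its log2 ratio to MSCs was 1.29 in COS1NR and -1.42 in MFH1NR. The relative intensity was 8.62 on the MSC array, 21.0 on that of COS1NR and 3.22 on that of MFH1NR. Without scaling the ratio in MFH1NR was -0.67, under 2-fold, so the opposite calls depend on the scaling. The difference was not tested, and it rests on 1 probe.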

How the results depend on the processing

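Of 27 log2 ratios of member genes, 22 stayed on their side of 2-fold under every alternative in which they had a value, and no ratio of at least 2-fold changed its sign. The 5 others were Ccnd1 in MFH1NR (1.07 by the second probe) and between the sarcomas (-0.82 without scaling, -0.84 by the second probe), Ccnd3 in MFH1NR (1.30 without scaling), Ccne2 in COS1NR (0.94 by the second probe) and Cdk4 in COS1NR. The last was 0.97, and between 1.12 and 1.37 without scaling, with median scaling, after normexp, with the mean of the probes and by the second probe. Some alternatives could not move a ratio. The series table held the same intensities, and the filters on dim probes changed no value. Raising dim intensities to the limit touched Ccnd2 alone, and the other-probe settings could not change Ccnd2 and Ccnd3, which have 1 probe. Counts of member genes moved by over 1.5 times in 9 cases. With a 3-fold threshold, 3 were higher in COS1NR than in MSCs, and between the sarcomas 1 was higher and 1 lower in MFH1NR. With genes well above background on all arrays, which leaves out Ccnd2, 0 were lower in COS1NR, 1 was lower in MFH1NR and 1 was higher in MFH1NR than in COS1NR. By the second probe, which leaves out Rb1, 1 was lower in MFH1NR than in MSCs and 0 were lower than in COS1NR, and without scaling 1 was lower than in COS1NR. Of pathway genes, 36 were higher and 6 lower in both sarcomas; 4 were lower without scaling and with median scaling, and 2 with a 3-fold threshold, while 42 were higher without scaling and 24 with a 3-fold threshold. Without scaling, turnover genes higher in MFH1NR went from 3 to 8 and inhibitors from 4 to 6. No paired analysis was possible because each cell type has 1 array.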
